A study of Homo sapiens with 4 samples.

Results

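The comparison described here is that of 143B osteosarcoma cells treated with melatonin against untreated 143B cells, in RNA sequencing libraries made from cells kept in suspension. Its members are the genes that reached 1 FPKM (counts relative to exonic length and library total) in at least 1 of the 143B libraries, which were 14135 of 61806 genes in the table. The filter looked at the level in either library and not at the difference between them. For 46 genes the higher of the FPKM values was exactly 1, and the nearest genes left out had 0.99 FPKM.

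143B is a human osteosarcoma line, and the treated cells received 1 mM melatonin for 72 h while the control cells received none. Cells of both groups were held under detachment, without a surface to attach to. There was 1 library per group and 1 cell line, the column names ending in T were taken as the treated cells, and no replicate error exists. Another pair of libraries came from JJ012, a human chondrosarcoma line, treated in the same way, and its values are given only beside those of 143B.

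Melatonin is an indoleamine hormone of the pineal gland that acts through G-protein-coupled receptors and, at high doses, also apart from them. It is broken down by cytochromes of the CYP1 family, whose genes are classical targets of the aryl hydrocarbon receptor AHR, a ligand-activated transcription factor. Osteosarcoma is a bone-forming tumour that spreads to the lung, and a cell that has left its matrix must withstand anoikis, the death programme set off by detachment.

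The libraries held 15889564 counts in the control and 17164824 counts after melatonin, so that 3 counts, taken as the detection floor, corresponded to 0.189 and 0.175 CPM, counts normalized to the library total alone. The number of genes at 1 FPKM or more was 13212 and 13198. Of 16 osteoblast markers, 6 reached 1 FPKM. The transcription factor RUNX2 was at 4.28 and 2.75 FPKM (control and melatonin, as in all pairs of values that follow), the matrix protein gene SPARC was at 30.23 and 26.05 FPKM, and the osteocalcin gene BGLAP was at 1.44 and 1.21 FPKM. Several defining genes of bone matrix were at or near 0, with COL1A1 at 0.49 and 0.33 FPKM, ALPL at 0.36 and 0.23 FPKM, IBSP listed at 0 in both libraries and SP7 at 0 and 0.02 FPKM. Of 13 chondrocyte markers 4 reached 1 FPKM, with SOX9 at 15.48 and 12.09 FPKM, COL9A3 at 62.47 and 53.93 FPKM and the cartilage genes ACAN and COL2A1 under 0.12 FPKM in both. The mesenchymal filament gene VIM was at 1676.32 and 1517.09 FPKM. RUNX2 and SPARC were thus present, while genes of the mature osteoblast were mostly low. DLX5, a homeobox factor of bone development, was the osteoblast marker that passed the threshold given below, with 48 and 109 counts (1.73 and 3.64 FPKM).

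Fold changes are given on the log2 scale, melatonin over control, from FPKM to which a pseudocount of 1 was added, which understates the change of genes with low values. A gene was called changed at an absolute value of 0.58 or more, about 1.49-fold. For single genes the exact (Clopper-Pearson) 95% interval of the ratio of CPM is also given on the log2 scale. It is called the counting interval, since it covers counting error and nothing of the variation between cultures. The ratio of CPM has no pseudocount, so its interval need not hold the log2 fold change of the same gene. With 1 library per group, no difference could be set against the spread between replicates, and no test was run.

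Changed genes were 12.7% of the 14135 genes, with 861 (6.09%) higher and 940 (6.65%) lower, so that 47.8% of the changed genes were higher. After removal of a running median over exonic length, 35.2% were higher. The share of changed genes differed by gene type. Among 10878 protein-coding genes, 662 (6.09%) were changed, of which 379 (3.48%) were higher and 283 (2.6%) were lower, and for 661 of the 662 the counting interval lay beyond 0. Among the 3257 other genes, 1139 (35.0%) passed the same threshold, and the counting interval of 664 of these included 0. Small RNAs (snRNA, snoRNA, miRNA and misc_RNA entries) stood at the extreme, with 463 of 644 past the threshold (71.9%), a median of 4 counts in those genes, and an interval that included 0 for 88.8% of them. In JJ012, by comparison, 33.9% of 11534 protein-coding genes passed the threshold. A fold of this size in the small RNA entries was thus mostly within counting error, and the results below turn on protein-coding genes, read against 3.48% higher and 2.6% lower.

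**Figure D1:**
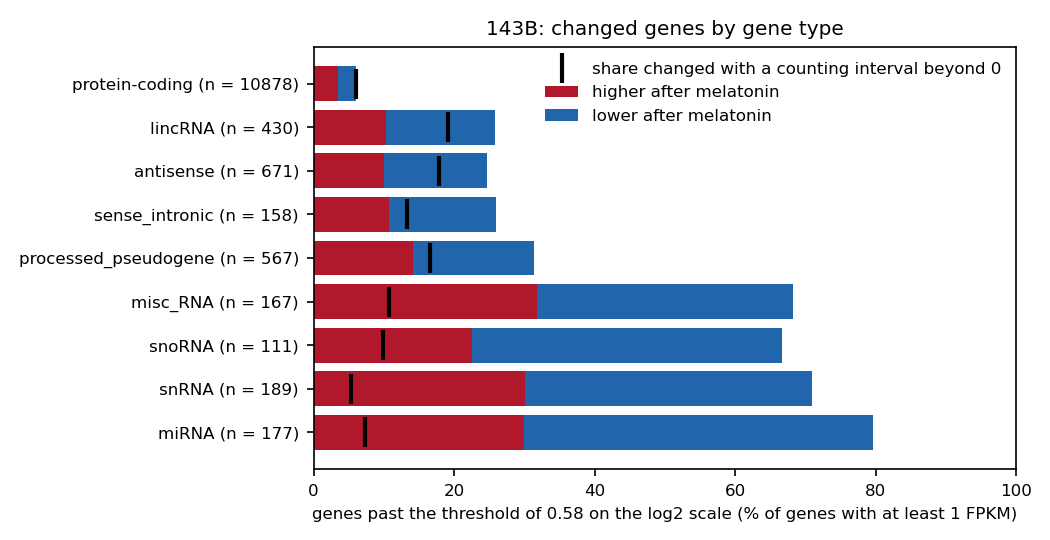
Share of 143B genes past the threshold of 0.58 (x axis, % of genes with at least 1 FPKM) by gene type (y axis), higher after melatonin in red and lower in blue, with a black tick at the share whose counting interval also lay beyond 0. The tick nearly meets the end of the bar for protein-coding genes (661 of 662 changed) and falls far short of it for miRNA entries, where 128 of 141 changed genes had an interval that included 0.

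Most of the changes were modest. Of the 662 changed protein-coding genes, 71 reached an absolute log2 fold change of 1, namely 25 that rose and 46 that fell. The 2720 protein-coding genes with the shortest exonic length, 207 to 3412 bases, had a median log2 fold change of 0.09, with 201 higher and 112 lower, and the 2720 with the longest, 8094 to 70573 bases, had a median near 0 with 34 higher and 55 lower. The part of this length trend in the results for short genes, such as the metallothioneins and mitochondrial mRNAs, was examined by subtracting it, and those values are given beside the lists.

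Genes of mitosis and cytokinesis formed the list that fell most. Of 26 such genes 25 reached 1 FPKM, 17 fell, none rose, and all 25 had a log2 fold change below 0, with a median of -0.68 beside 0.03 over all genes. Their summed level went from 135.94 to 70.87 FPKM. Broader annotation terms had smaller medians. Under the GO term for mitotic sister chromatid segregation 8 of 30 genes were lower and 0 higher, with a median of -0.26. Under the GO term for the mitotic spindle assembly checkpoint 8 of 25 were lower and 0 higher, with a median of -0.26. The KEGG term for the cell cycle held 8 lower and 6 higher of 121, with a median of -0.04. TOP2A, the DNA topoisomerase that untangles sister chromatids, went from 12.18 to 4.76 FPKM (1234 and 521 counts) and fell by 1.19 on the log2 scale. The counting interval of its CPM ratio, which has no pseudocount, was -1.51 to -1.21. MKI67, the gene of the proliferation antigen Ki-67 that coats mitotic chromosomes, went from 1307 to 619 counts (6.40 and 2.81 FPKM). Kinases, cyclins, motors and scaffolds were all among the genes that fell.

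CDK1, the kinase that drives entry into mitosis, went from 8.44 to 4.10 FPKM, and its cyclin partners CCNB1 and CCNA2 fell with log2 fold changes of -0.83 and -0.99. The checkpoint kinase genes BUB1B (6.49 and 2.82 FPKM) and TTK (2.97 and 1.27 FPKM) fell by 0.97 and 0.81. CDC20, the activator of the anaphase-promoting complex, was at 208 and 112 counts (6.51 and 3.24 FPKM). The Aurora kinases AURKA and AURKB had log2 fold changes of -0.68 and -0.84, and the spindle factor TPX2, which activates Aurora A, went from 16.25 to 8.03 FPKM. Among motors and structural proteins, KIF20A, KIF11, CENPF, HMMR and the cytokinetic scaffold ANLN fell by between 0.62 and 0.99. FOXM1, the transcription factor of this programme, was at 2.51 and 1.34 FPKM and just passed the threshold at -0.58.

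The 8 genes of the list that did not pass the threshold were CCNB2, KIF23, BUB1, BIRC5, PRC1, CENPE, PLK1 and MAD2L1, with log2 fold changes from -0.47 to -0.07, and among them the counting interval of MAD2L1 alone (-0.34 to 0.15) included 0. In bulk RNA, fewer dividing cells and less of these RNAs per cell cannot be told apart. In JJ012, 7 of 26 genes of the list fell, none rose, and the median was -0.37. The counts of calls under other settings ranged from 1 with a threshold of 1 to 20 with TPM, where the pseudocount weighs less.

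**Figure D2:**
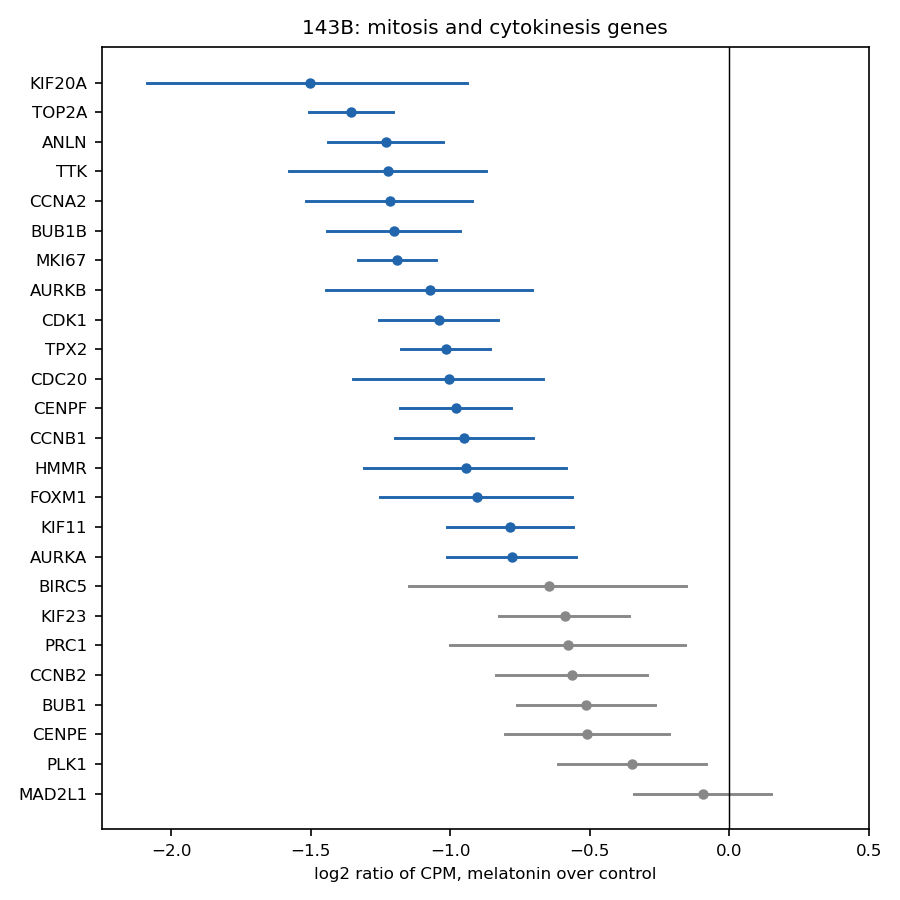
Log2 ratio of CPM, melatonin over control (x axis), for the 25 mitosis and cytokinesis genes with at least 1 FPKM (y axis), with points for the ratio of the 2 libraries and lines for the exact 95% counting interval, blue where the gene was called lower and grey otherwise. All 25 points lie left of 0, and only the interval of MAD2L1 crosses it.

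The genes of this programme are known to share 2 promoter elements, the cell cycle gene homology region (CHR) and the CCAAT box. To show what the letters look like in genes that fell, the 250 bases before the start of TOP2A, CDC20 and MKI67 are printed from RefSeq (GRCh38.p14), with matches to CHR (TTTGAA or TTCGAA) and to CCAAT, on either strand, in capitals. The windows are chr17:40417897-40418146 on the minus strand, chr1:43358731-43358980 on the plus strand and chr10:128126424-128126673 on the minus strand.
TOP2A: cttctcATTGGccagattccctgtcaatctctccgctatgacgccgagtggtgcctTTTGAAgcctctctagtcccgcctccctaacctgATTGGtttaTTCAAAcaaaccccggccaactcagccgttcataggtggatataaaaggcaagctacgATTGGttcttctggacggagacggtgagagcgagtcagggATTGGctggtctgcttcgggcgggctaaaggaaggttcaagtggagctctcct
CDC20: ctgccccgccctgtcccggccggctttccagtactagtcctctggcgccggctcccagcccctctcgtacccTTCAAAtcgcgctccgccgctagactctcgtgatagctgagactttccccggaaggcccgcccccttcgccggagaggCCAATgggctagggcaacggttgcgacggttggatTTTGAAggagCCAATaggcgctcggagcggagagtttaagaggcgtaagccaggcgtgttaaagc
MKI67: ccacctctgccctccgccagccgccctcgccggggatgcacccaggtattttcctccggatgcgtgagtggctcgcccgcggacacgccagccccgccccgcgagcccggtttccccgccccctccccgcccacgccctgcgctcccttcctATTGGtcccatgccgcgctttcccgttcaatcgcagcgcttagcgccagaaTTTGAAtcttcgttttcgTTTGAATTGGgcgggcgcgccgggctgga
The TOP2A window held 2 CHR and 4 CCAAT matches, and the CDC20 and MKI67 windows held 2 of each, in MKI67 with a CHR match that runs into a CCAAT match. Of the 17 genes that fell, 13 had a promoter in the table, with 15 windows. A CHR match was found in 9 of the 15 windows (60.0%), against 14.3% of 35116 promoter windows of the same length. A CCAAT match was found in 13 of the 15 (86.7%), against 32.0% of all windows. Cores of other factors were also more frequent in these windows than in all, the metal response core TGCACNC or TGCGCNC in 9 of the 15 (60.0%, against 24.8%) and the AHR core GCGTG in 7 (46.7%, against 32.2%). The genes of the list that did not pass the threshold were not counted. The shares therefore do not set the genes that fell apart from other mitosis genes. These are matches of letters and say nothing of whether a factor was bound.

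Genes of DNA replication and the G1/S step were mixed. Of 21 that reached 1 FPKM, 3 rose, 1 fell, and the median was -0.16, or 0.19 with a filter of 5 FPKM. PCNA, the sliding clamp of DNA polymerases, went from 158 to 277 counts (7.09 and 11.50 FPKM), cyclin E (CCNE1) from 172 to 307 counts and the helicase subunit MCM6 from 403 to 692 counts, with log2 fold changes of 0.63, 0.61 and 0.59. These rises were close to the threshold, and with the length trend removed 0 of the 3 were called. The gene that fell was RRM2, the regulatory subunit of ribonucleotide reductase, from 684 to 221 counts (4.70 and 1.41 FPKM, a log2 fold change of -1.24). The 6 subunits of the MCM helicase ranged from -0.45 to 0.59. Of 8 replication-dependent histone genes H1-2 fell, from 1175 to 690 counts, and the other 7 lay between -0.32 and 0.19. The libraries were poly(A)-selected, so histone transcripts without a poly(A) tail are not expected among these counts. Among D cyclins and CDK inhibitors, CDKN1C fell (6.07 and 3.64 FPKM) as the only changed gene of 11, while CDKN1A, which encodes p21, was at 94.30 and 107.14 FPKM with a log2 fold change of 0.18.

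The mRNAs encoded by the mitochondrial genome rose together. Of 13, 12 passed the threshold, and MT-ND1, at 359.96 and 469.42 FPKM, had a log2 fold change of 0.38. Their median was 0.77, and mitochondrial genes took 1.63% of all counts in the control and 2.46% after melatonin. MT-CO1, the catalytic subunit of cytochrome c oxidase, went from 49594 to 92593 counts (2024.10 and 3498.28 FPKM) and rose by 0.79. MT-ND6, the gene on the light strand, had the largest value of the list, 0.98, from 223.69 to 441.55 FPKM. MT-CYB of complex III went from 276.39 to 454.84 FPKM, and MT-ATP6 of the ATP synthase from 586.46 to 996.98 FPKM. With the length trend removed, 10 of 13 passed the threshold.

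The nuclear genes of the same complexes did not move with them. Of 27 nuclear respiratory chain subunits NDUFA2 rose (124 and 266 counts, a gene that overlaps TMCO6 and IK on the other strand), none fell, and the median was 0.01. ATP5F1B, the beta subunit of the ATP synthase, was at 90.55 and 86.97 FPKM, and UQCRC1 of complex III at 48.58 and 51.88 FPKM. In JJ012, the 13 mitochondrial mRNAs had a median of -1.15, with 10 that fell, and the share of mitochondrial counts was 6.78% in the control and 4.35% after melatonin. The difference between the lines was not tested.

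Metallothioneins, small cysteine-rich proteins that bind zinc and copper and are induced through the metal-responsive factor MTF1, also rose. Of 8 genes of the list with at least 1 FPKM, 5 rose and none fell, with a median of 0.62. MT2A went from 156.65 to 386.71 FPKM (2275 and 6067 counts) with a counting interval of 1.23 to 1.37. MT1X was at 1770 and 5069 counts (64.50 and 171.00 FPKM) and MT1E at 282 and 951 counts (16.87 and 52.67 FPKM), with log2 fold changes of 1.39 and 1.59. MT1F (73 and 136 counts) and MT1M (21 and 40 counts) were lower in level and just passed the threshold, and with the length trend removed 3 genes were called. MT1A was not detected in the control and had 4 counts after melatonin, and MT1H and MT3 had none in either library. The genes of the list that are not metallothioneins stayed under the threshold, namely MTF1 itself (4.06 and 4.35 FPKM), the zinc exporter SLC30A1 (4.24 and 4.00 FPKM) and the zinc importer SLC39A10 (8.53 and 6.12 FPKM, a log2 fold change of -0.42). Metallothionein genes are near-identical in sequence, and the counts can be split among them in uncertain ways. In JJ012, MT2A had a log2 fold change of -0.31 and MT1X one of 0.02.

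The promoters of the metallothioneins are the textbook case of metal response elements, and the 250 bases before the starts of MT2A and MT1X are given to show them. The sequences are from RefSeq (GRCh38.p14, plus strand, chr16:56608334-56608583 and chr16:56682220-56682469). Capitals mark matches, on either strand, to the core of the element, TGCACNC or TGCGCNC.
MT2A: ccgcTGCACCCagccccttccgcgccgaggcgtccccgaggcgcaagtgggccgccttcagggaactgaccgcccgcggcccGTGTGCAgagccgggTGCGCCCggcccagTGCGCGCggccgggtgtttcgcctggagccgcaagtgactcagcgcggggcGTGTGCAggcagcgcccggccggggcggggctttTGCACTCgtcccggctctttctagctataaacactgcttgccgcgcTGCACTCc
MT1X: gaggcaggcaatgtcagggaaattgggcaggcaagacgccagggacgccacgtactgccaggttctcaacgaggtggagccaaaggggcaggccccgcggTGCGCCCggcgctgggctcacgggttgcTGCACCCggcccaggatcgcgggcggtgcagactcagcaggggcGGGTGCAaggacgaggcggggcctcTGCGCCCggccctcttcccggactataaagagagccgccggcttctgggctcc
The MT2A window held 7 matches and the MT1X window 4, while 24.8% of 35116 promoter windows held at least 1. MT1E, MT1F and MT1M were not in the promoter table used.

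Among genes of matrix proteases and their inhibitors more rose than fell, and most were under the threshold. Of 19 with at least 1 FPKM, 6 rose and 1 fell, with a median of 0.40. With TMM scaling, centring on the median gene or the length trend removed, 5 rose. MMP10 (chr11:102770502-102780628), which encodes the stromelysin-2 protease, went from 217 to 1283 counts (7.76 and 42.49 FPKM), with a log2 fold change of 2.31 and a counting interval of 2.24 to 2.67. The interstitial collagenase MMP1, its neighbour, was far more abundant and was at 994.01 and 1503.96 FPKM, a rise of 0.60 and close to the threshold. Both overlap the transcript WTAPP1 on the other strand. The membrane-type protease MMP15 went from 4.74 to 9.87 FPKM. The inhibitor TIMP1 rose at the same time, from 109.07 to 204.27 FPKM (2506 and 5070 counts).

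The urokinase system rose as a pair, with the protease PLAU at 26.74 and 42.93 FPKM and its receptor PLAUR at 64.23 and 111.55 FPKM. The gelatinases MMP9 (165.82 and 231.21 FPKM) and MMP2 (42.62 and 37.39 FPKM) and the membrane protease MMP14 (121.28 and 159.59 FPKM) had values of 0.48, -0.18 and 0.39 and did not pass. TIMP4, with 114 and 59 counts, was the member that fell. In JJ012, 9 of 16 genes of the list fell and none rose, with a median of -0.77.

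**Figure D3:**
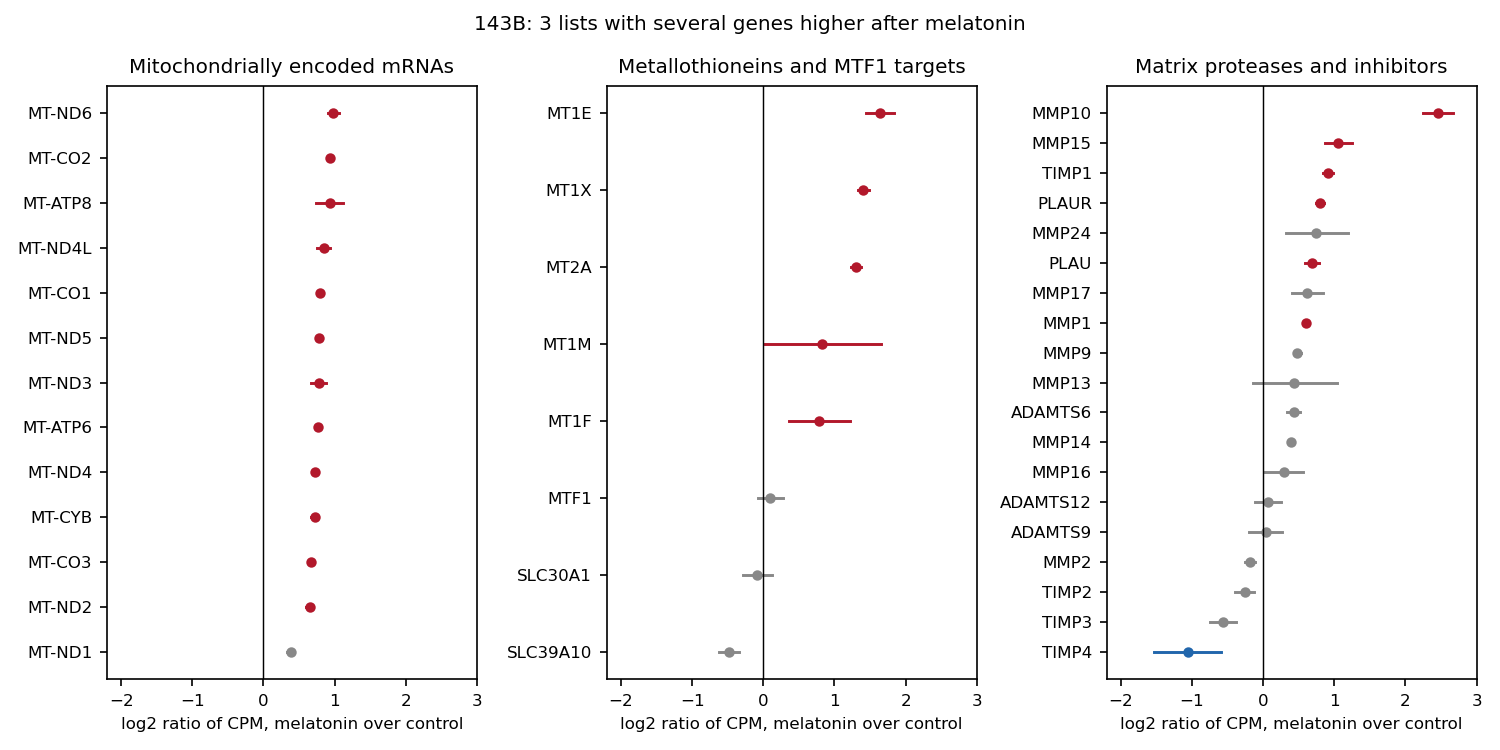
Log2 ratio of CPM, melatonin over control (x axis), for the genes with at least 1 FPKM (y axis) of 3 lists in which several genes rose, with lines for the exact 95% counting interval and colour for the call (red higher, blue lower, grey under the threshold). The mitochondrial mRNAs lie in a narrow band to the right of 0, whereas the metallothionein and protease lists hold genes from -1.06 (TIMP4) to 2.45 (MMP10).

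The matrix itself changed in single genes rather than as a whole. None of 14 collagen genes passed the threshold, with a median of 0.11 and COL6A2 at 445.87 and 527.77 FPKM. FN1, the fibronectin gene, fell by 0.98, from 19018 to 10272 counts (69.52 and 34.76 FPKM). Laminin genes moved in both directions. The chains of laminin-332, LAMA3 (10.78 and 6.09 FPKM) and LAMB3 (51.23 and 27.46 FPKM), fell by 0.73 and 0.88, LAMA5 (28.58 and 18.71 FPKM) fell by 0.59, and LAMC1, the common gamma chain of many laminins, rose from 44.67 to 69.17 FPKM. These were 4 changed genes of 13, with a median of -0.01.

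Among 18 integrin and focal adhesion genes, ITGA2, whose product pairs with beta-1 to bind collagen, rose from 126.16 to 199.84 FPKM (15828 and 27085 counts). The collagen receptors ITGA10 (476 and 139 counts) and ITGA11 (919 and 590 counts) fell by 1.33 and 0.60, and ITGB1 was at 52.57 and 61.40 FPKM with a log2 fold change of 0.22. Of 12 mesenchymal genes with at least 1 FPKM, FN1 and S100A4 (51 and 11 counts) fell and none rose, with a median of -0.16. The transcription factors of epithelial-mesenchymal transition were under the threshold, with ZEB1 at 24.00 FPKM in both libraries, SNAI1 at 17.94 and 14.25 FPKM and TWIST1 at 6.43 and 5.08 FPKM. CDH1, the E-cadherin gene, had 0 and 1 counts.

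CYP1B1 (chr2:38066973-38109902) went from 1799 to 310 counts (18.92 and 3.02 FPKM), with a log2 fold change of -2.31. Its log2 ratio of CPM was -2.65, with a counting interval of -2.83 to -2.47. Its relative CYP1A1, which hydroxylates melatonin, went from 125 to 31 counts (2.34 and 0.54 FPKM). TIPARP, an ADP-ribosyltransferase induced by AHR that also restrains it, was at 20.26 and 11.55 FPKM and fell by 0.76. These were the 3 changed genes among 10 of the AHR list, which had a median of -0.31 with 9 of the 10 below 0. AHR was at 2.93 and 3.81 FPKM, its partner ARNT at 17.59 and 17.12 FPKM and its repressor AHRR at 1.58 and 1.25 FPKM, none past the threshold. In JJ012 CYP1B1 had 0 and 4 counts and was under 1 FPKM, and the log2 fold changes were -0.18 for CYP1A1 and 0.79 for TIPARP.

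The membrane receptors of melatonin were not detected. MTNR1A and MTNR1B had 0 counts in both libraries, at a floor of 0.189 and 0.175 CPM. RORA, a nuclear receptor that has been named as a melatonin target, was at 29.54 and 20.51 FPKM with a log2 fold change of -0.51, and NQO2, the quinone reductase known as a melatonin binding site, was at 9.91 and 10.61 FPKM. The CYP1A1 promoter is shown since it is the model target of AHR. It is taken from RefSeq (GRCh38.p14, minus strand, chr15:74725529-74725778), with the AHR core GCGTG, searched on both strands, in capitals.
CYP1A1: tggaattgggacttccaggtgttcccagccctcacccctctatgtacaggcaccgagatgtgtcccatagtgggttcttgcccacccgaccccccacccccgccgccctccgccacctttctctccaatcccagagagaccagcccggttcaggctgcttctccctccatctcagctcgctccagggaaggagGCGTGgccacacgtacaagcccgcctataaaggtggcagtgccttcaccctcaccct
It held 1 match, and 32.2% of all promoter windows held at least 1, so the core is common by its letters alone. CYP1B1 was not in the promoter table used.

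The genes with the largest changes beyond those already described had varied roles. Among the genes that rose, EGR1, an immediate-early transcription factor, was at 1153 and 3358 counts (23.13 and 62.36 FPKM) and rose by 1.39. CEMIP, which binds and depolymerises hyaluronan, went from 38.99 to 99.15 FPKM and IDUA, the lysosomal alpha-L-iduronidase, from 126 to 462 counts (1.95 and 6.63 FPKM). CSTB, the cysteine protease inhibitor cystatin B, was the most abundant of them next to MT2A, with 120.25 and 268.13 FPKM. RGS2, a regulator of G-protein signalling, RTN1, a reticulon of the endoplasmic reticulum, and TAGLN3, a transgelin of neural tissue, rose by 1.20, 1.17 and 1.30 on the log2 scale, each from between 4 and 7 FPKM.

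Among the genes that fell were S100A2, a calcium-binding protein of stratified epithelia, from 224 to 30 counts (9.12 and 1.13 FPKM), and DCDC2C, a doublecortin-domain gene, from 417 to 64 counts. SFN, which encodes 14-3-3 sigma, went from 115 to 30 counts and KRT79, a type II keratin, from 496 to 191 counts. HAS3, a hyaluronan synthase, went from 10.57 to 3.29 FPKM and AKR1B1, the aldose reductase of the polyol pathway, from 72.87 to 26.72 FPKM (4231 and 1676 counts). PAEP, the secreted glycoprotein glycodelin, was at 163 and 54 counts. WFDC10B, a protease inhibitor-like gene, had 57 and 16 counts. CEMIP overlaps MESD, HAS3 overlaps CHTF8 and WFDC10B overlaps WFDC13 on the other strand. In JJ012, S100A2 and SFN had values of -1.18 and -0.75, while DCDC2C and HAS3 were under 1 FPKM in both of its libraries.

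**Figure D4:**
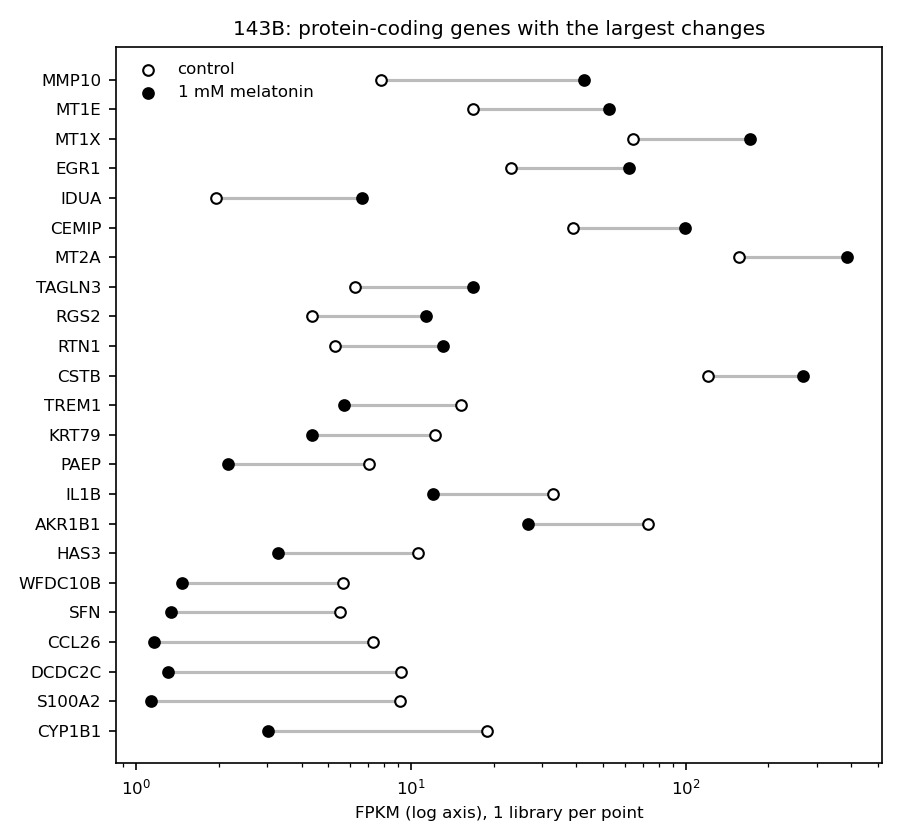
FPKM (x axis, log scale) of the 11 risen and 12 fallen protein-coding genes named by rank of their log2 fold change (y axis), with an open circle for the control library, a filled circle for the melatonin library and a grey line joining them. The risen genes end between 6.63 (IDUA) and 386.71 FPKM (MT2A), and the fallen genes end between 1.13 (S100A2) and 26.72 FPKM (AKR1B1).

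Outside the protein-coding genes, the entries that ranked highest rested on few counts. MIR3685 had 4 and 22 counts, MIR635 had 3 and 16, a Y RNA gene had 3 and 15, and the metallothionein pseudogene MT2P1 had 4 and 22. Those that fell were SNORD14E, which lies in an intron of HSPA8, with 20 and 0 counts, MIR4730 and ENSG00000273196, each with 8 and 0 counts, and MIR3125 with 14 and 1 counts. For SNORD14E, the upper limit of the log2 CPM ratio was -2.42. Among 19 listed long noncoding RNAs, MIR22HG (639 and 304 counts) and MIR17HG (209 and 123 counts) fell, and NEAT1 was at 11.77 and 14.80 FPKM with a log2 fold change of 0.31.

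Cytokine genes fell where they changed. Of 17 chemokine, cytokine and NF-kB genes 4 fell and none rose, with a median of -0.09. IL1B and IL1A, which encode the beta and alpha forms of interleukin-1, went from 32.75 to 12.04 FPKM (1566 and 622 counts) and from 32.95 to 14.41 FPKM (1056 and 499 counts). CCL26, the chemokine eotaxin-3, went from 81 to 14 counts (7.25 and 1.16 FPKM) and TNFAIP2 from 470 to 268 counts. CXCL8 (66.83 and 57.18 FPKM), IL6 (8.72 and 9.01 FPKM) and the NF-kB inhibitor NFKBIA (36.10 and 33.97 FPKM) did not pass. TREM1, a receptor best known from myeloid cells, fell from 15.16 to 5.71 FPKM.

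The 10 leukocyte markers were at or near 0. CD68, which is not restricted to leukocytes, was the sole member at 1 FPKM or more (0.81 and 1.19 FPKM), PTPRC had 6 and 2 counts, CD3E had 0 counts in both libraries, and the summed level of the list was 1.91 and 1.55 FPKM. In JJ012 IL1B had 1 count in each library and IL1A had 7 and 10, both under 1 FPKM. Of 9 interferon-stimulated genes with at least 1 FPKM, IFIT2 (70 and 151 counts, opposite LIPA) rose by 0.58 and the others ranged down to IRF9 at -0.26. IFIT2 was no longer called with TMM scaling, DESeq2 size factors, centring on the median gene or the length trend removed.

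Of the calcium-binding S100 family, genes of low level fell. Of 9 with at least 1 FPKM, S100A2, S100A3 (25 and 3 counts) and S100A4 fell and none rose, with a median of -0.45. S100A3 and S100A4 overlap on the same strand. S100A10, at 477.98 and 411.67 FPKM, and S100A11, at 369.75 and 370.56 FPKM, did not pass. In JJ012 all 9 genes of the list that reached 1 FPKM fell, with a median of -1.76. Of 12 epithelial markers 4 reached 1 FPKM, KRT18 fell from 35.82 to 22.67 FPKM, and KRT8 was at 9.64 and 8.91 FPKM. The summed level of these 12 was 49.01 and 34.41 FPKM. Of 7 endothelial markers, EGFL7 rose from 174 to 346 counts and PECAM1 was at 2.40 and 2.04 FPKM, while CDH5 and TEK had 0 counts in both libraries.

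Glutamine was the nutrient the study turned to. None of 7 glutamine transporter genes and none of 15 glutamine and glutamate enzyme genes with at least 1 FPKM passed the threshold, with medians of -0.05 and 0.06. SLC38A1, a transporter at 20.19 and 13.48 FPKM, lay close to it at -0.55, while the abundant SLC38A2 was at 225.67 and 224.28 FPKM. SLC38A5 did not reach 1 FPKM in either library, with 29 and 2 counts (0.45 and 0.03 FPKM), and its counting interval ran from -7.08 to -1.99.

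In energy metabolism, most genes of glycolysis were under the threshold. Of 20, PDK1, the kinase that shuts pyruvate dehydrogenase, fell from 28.13 to 13.41 FPKM (6636 and 3417 counts), the aldolase ALDOC fell from 820 to 522 counts, and none rose. GAPDH was at 2389.33 and 2924.65 FPKM and LDHA at 371.71 and 282.90 FPKM. The 17 enzymes from hexokinase to lactate dehydrogenase had a median of -0.19. Of 4 pentose phosphate enzymes 2 rose, among them PGD, the 6-phosphogluconate dehydrogenase, from 1457 to 2449 counts (27.51 and 42.81 FPKM).

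The same 2 genes were those that rose among 25 NRF2 targets and antioxidant enzymes, in which HMOX1, the haem oxygenase, fell from 542 to 334 counts and the median was 0.05. The thioredoxin reductase TXNRD1 was at 26.64 and 37.53 FPKM, a log2 fold change of 0.48. Hypoxia-response genes, highly expressed in both libraries, held 3 changed members of 25 and a median of -0.11. The glycoprotein hormone STC1 rose from 324.14 to 502.03 FPKM, while the carbonic anhydrase CA9 (141 and 50 counts) and PPFIA4 (2979 and 1918 counts) fell. With TPM or the length trend removed, none of the list rose. VEGFA was at 123.64 and 101.21 FPKM.

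Sterol genes leaned low without passing the threshold as a group. Of 24 listed genes of cholesterol synthesis and uptake 19 were below 0 with a median of -0.30. The sole changed gene of the list was HMGCS1, an early synthase of the pathway, from 19.81 to 9.47 FPKM (2086 and 1077 counts). The list had 3 lower genes with TMM scaling and 5 with TPM. EBP, which is not in the list, was the 1 gene called lower of 18 under the KEGG term for steroid biosynthesis. The median of the 17 enzymes alone was -0.29, and INSIG1, which holds back the sterol-sensing machinery, was at 126.73 and 97.44 FPKM. Of 14 genes of fatty acid synthesis and storage, PLIN2, which coats lipid droplets, fell from 544.90 to 359.18 FPKM, none rose and the median was 0.09. In JJ012 the cholesterol list had a median of 0.31.

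Stress-response lists changed in few members. Of 23 ATF4 target genes 2 rose and 3 fell with a median of -0.03. The factor ATF5 (47 and 115 counts, opposite NUP62) and the glutathione-degrading CHAC1 (15 and 43 counts) rose, while CEBPB (64.99 and 34.85 FPKM), DDIT3, which encodes CHOP (17.53 and 10.88 FPKM), and ATF3 (3.35 and 1.87 FPKM) fell, and ATF4 itself was at 345.50 and 352.52 FPKM. In JJ012, 12 of 24 genes of this list rose. Of 21 genes of protein folding in the endoplasmic reticulum MANF rose, from 1440 to 2591 counts (42.37 and 70.57 FPKM), and HSPA5, the chaperone BiP, was at 221.99 and 265.59 FPKM with a list median of 0.16. Of 13 cytosolic heat shock genes HSPA1A (168 and 44 counts) and HSPA1B (287 and 191 counts) fell, a pair so alike in sequence that their counts cannot be assigned with certainty, and the median was -0.14.

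The genes of RNA polymerases leaned high. Of 29 subunits, 27 were above 0 and the median was 0.30, although only POLR2L (99 and 192 counts) and POLR3K (31 and 77 counts) passed. The medians were 0.39 for the 5 polymerase I subunits, 0.26 for 7 of polymerase II, 0.31 for 10 of polymerase III and 0.21 for 7 shared subunits. POLR2A, the largest subunit of polymerase II, was at 41.62 and 55.08 FPKM. The 35 ribosomal protein genes had no changed member and a median of -0.06, and 22 splicing regulators had none and a median of -0.19.

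Among p53 and its targets, GADD45A, a growth-arrest gene, rose by 1.09, from 829 to 1940 counts (27.10 and 58.71 FPKM), and the kinase PLK3 from 231 to 413 counts. None of the 20 listed genes fell, the median was 0.15, and MDM2 was at 4.50 and 4.08 FPKM. SFN, which fell from 115 to 30 counts, was not in this list. Apoptosis genes changed little. Of 20 that promote it FADD, the adaptor of death receptors, rose (329 and 557 counts), none fell and the median was 0.12, and with TMM scaling or the length trend removed none of the 20 rose. Of 9 that oppose it BCL2A1 rose from 37.00 to 62.12 FPKM, none fell and the median was -0.04. None of 15 autophagy genes passed, with a median of 0.02.

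Signalling genes changed singly. Among 21 PI3K-Akt-FOXO genes, the adaptor IRS1 rose (268 and 629 counts), RPTOR, the scaffold of mTOR complex 1, fell from 11.45 to 5.46 FPKM and the median was 0.04. PIK3CA was at 4.71 and 4.60 FPKM and AKT1 at 13.34 and 13.73 FPKM. Of 19 genes of RAS-ERK output EPHA2 fell (434 and 279 counts), DUSP6 lay just under the threshold (110.90 and 166.17 FPKM), and the median was 0.08. Of 18 AP-1, EGR and MYC genes, EGR1 rose and KLF4 (14.52 and 6.86 FPKM), MYCN (109 and 47 counts) and ATF3 fell, with a median of 0.11 and JUN at 94.58 and 99.14 FPKM.

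None of 10 YAP/TEAD genes passed, with a median of 0.03. Of 16 TGF-beta and BMP response genes 2 rose, among them INHBA, which encodes an activin subunit (1374 and 2383 counts), with a median of 0.01 and the ligand TGFB1 at 154.58 and 169.05 FPKM. Of 14 Wnt genes, the secreted antagonist SFRP1 (82.85 and 132.26 FPKM) and ZNRF3, a ligase that removes Wnt receptors (186 and 406 counts), rose, and beta-catenin (CTNNB1) was at 30.11 and 26.71 FPKM with a list median of 0.03. None of these 3 lists held a gene that fell.

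Of 16 clock genes 2 fell and none rose. NR1D1, the haem-binding repressor REV-ERB alpha, fell from 36.54 to 19.47 FPKM (1527 and 879 counts) and PER3 from 149 to 60 counts, while 13 of the 16 were below 0 and the median was -0.32. NR1D1 lies opposite THRA. PER1 and PER2 had values of -0.32 and -0.48, BHLHE40 was at 313.19 and 337.77 FPKM, and CLOCK at 8.60 and 7.83 FPKM. In JJ012, the list had a median of 0.52 with 7 of 17 that rose.

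**Figure D5:**
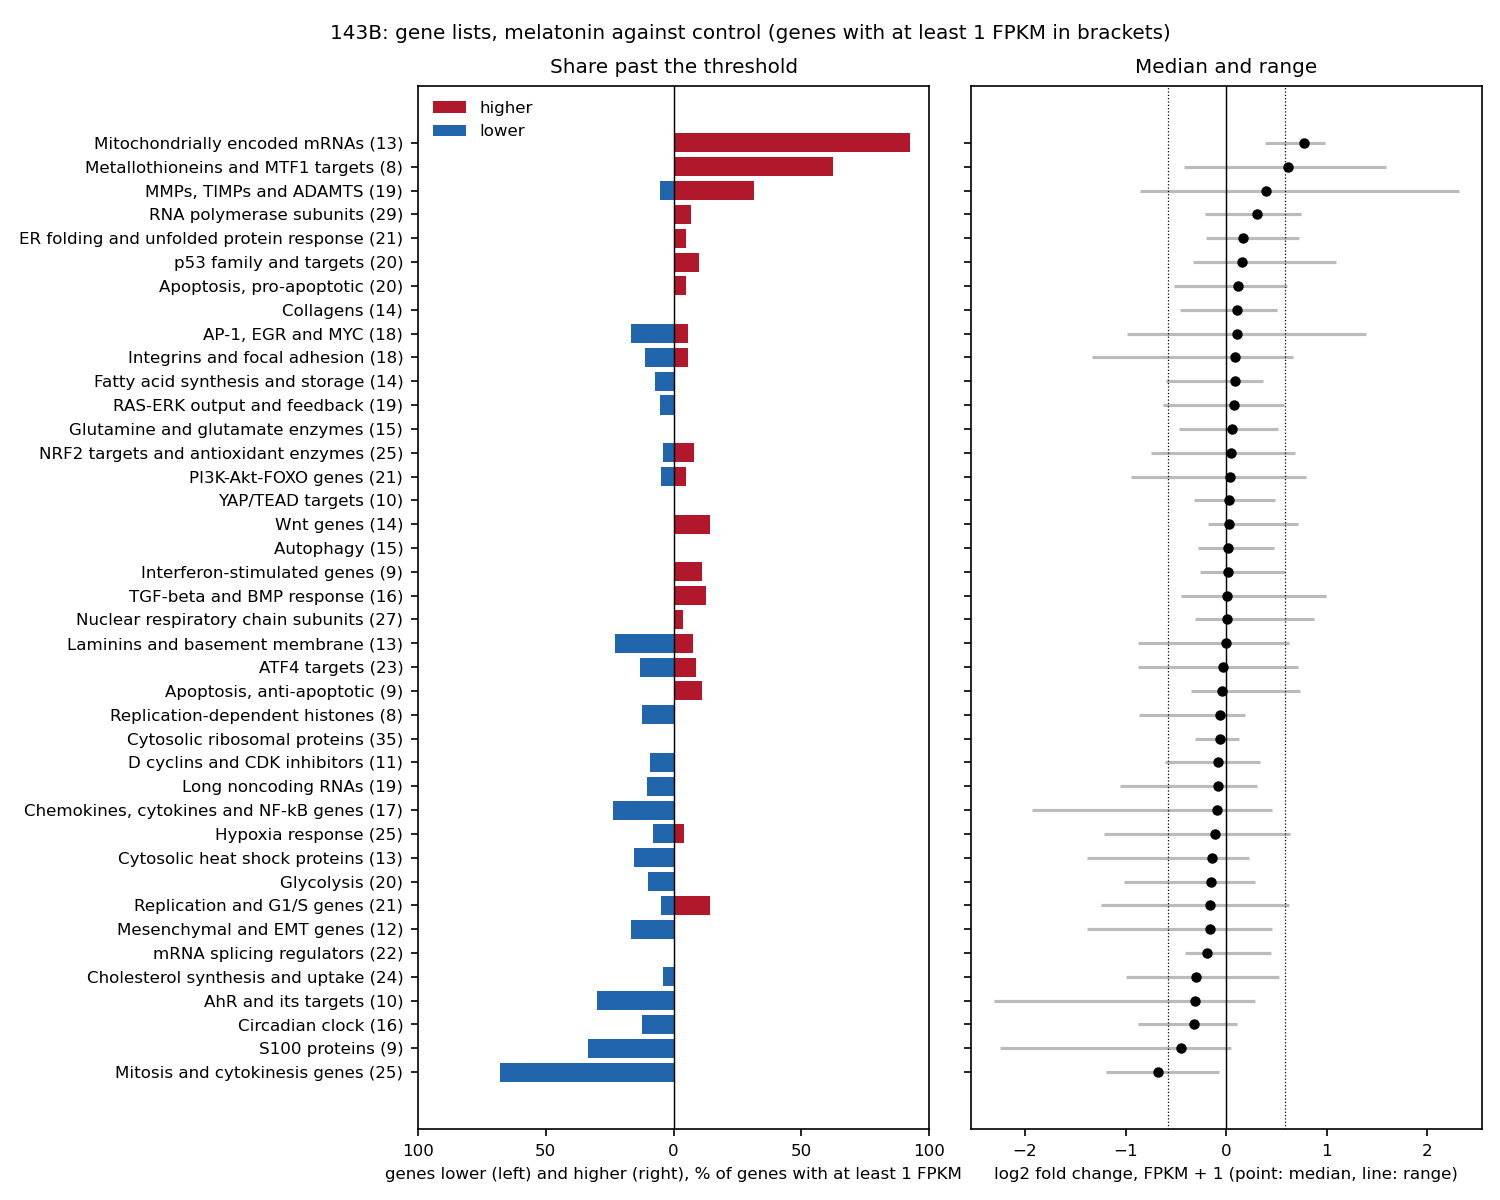
For each gene list with at least 8 genes at 1 FPKM or more (y axis, number of genes in brackets), the left panel gives the share of those genes called lower (blue, to the left) and higher (red, to the right), and the right panel gives the median (point) and range (line) of the log2 fold change with dotted lines at 0.58 and -0.58. Mitochondrial mRNAs and metallothioneins, with medians of 0.77 and 0.62, and mitosis genes, with a median of -0.68, are the lists whose medians pass a dotted line.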

How the data were processed

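RNA from detached 143B cells, untreated or treated with melatonin, was sequenced as poly(A)-selected paired ends, 1 library per group, and groups were taken from the sample labels. The authors deposited counts per gene, without normalization, and FPKM, which are those counts normalized to exonic length and library total. The submitters' processing notes name cutadapt 1.9.1, HISAT2 2.2.1, HTSeq 0.6.1, DESeq2 and the hg38 build. The strand setting is not given in the sources used here, so reads of genes that overlap on opposite strands cannot be told apart.

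Computed here, for genes at 1 FPKM or more in either library, were the log2 fold change of FPKM plus a pseudocount of 1, called at 0.58, and the ratio of CPM with exact 95% intervals. No test was run, since there is 1 library per group. Gene types came from GENCODE 29 (58254 of 61806 genes matched, 13926 of the 14135 used), gene names from the table or by gene ID, and promoters from RefSeq. Named genes were the 12 protein-coding genes with the largest rise and the 12 with the largest fall among those with at least 5 FPKM in either library, 4 and 4 other genes, and in each of 47 lists every changed gene or the most abundant ones and the regulators. Some genes that the rule names are not reported here. Genes and lists were chosen with earlier results of these data known.

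Alternatives were TPM, CPM, TMM (edgeR 4.0.16) and DESeq2 1.42.0 size factors, centring on the median gene, a threshold of 1, a pseudocount of 0.1, a filter of 5 FPKM or none, protein-coding genes alone and, chosen after seeing the data, removal of a running median of 501 genes over exonic length. The procedures were tested on simulated counts. Software was R 4.3.3 and Python 3.11.15 (pandas 2.3.3, numpy 2.4.6, matplotlib 3.10.9, scipy 1.17.1).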

Additional observations from a re-analysis of the deposited data

Results flagged for a closer look

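The values of the lines pointed in opposite directions for several results, and those flagged are given after the examples that follow. None of these differences was tested, since each line had 1 library per group. Signs also differed for the median of the protease list (0.40 in 143B and -0.77 in JJ012) and of the clock list (-0.32 and 0.52). NTSR1 was called higher in 143B and lower in JJ012. RTN1, which rose by 1.17 on the log2 scale in 143B, was at -0.74 on that scale in JJ012. The endothelial genes with at least 1 FPKM, which were EGFL7 and PECAM1 in 143B, had a median of 0.29 in 143B and of -1.13 in JJ012. In 143B these genes differed in sign, with EGFL7 at 0.75 and PECAM1 at -0.16, so the median above 0 rests on EGFL7. The mitochondrially encoded mRNAs had a median of 0.77 in 143B and of -1.15 in JJ012.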

How the results depend on the processing

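No paired analysis was possible because each group had 1 library. The number of changed genes, 1801, became 2948 (1514 higher, 1434 lower, 51.4% higher) with a pseudocount of 0.1 FPKM, 547 (280 higher, 267 lower, 51.2% higher) with a filter of 5 FPKM, 2733 (1520 lower, 44.4% higher) with TPM, 629 (242 higher, 387 lower, 38.5% higher) with a threshold of 1, and 662 (379 higher, 283 lower, 57.3% higher) for protein-coding genes alone. The TPM values also took a pseudocount of 1. FPKM summed to 215320.9 in the control and 223998.2 after melatonin, so 1 TPM is a smaller amount than 1 FPKM. The count with TPM thus mixes the scaling with a smaller pseudocount. The share that was higher was 55.4% with CPM, 43.4% with TMM, 43.3% when centred on the median gene and 35.2% with the length trend removed, against 47.8%. Metallothionein genes called higher, 5 as reported, were 3 with a filter of 5 FPKM, a threshold of 1 or the length trend removed. With a threshold of 1, mitochondrial mRNAs called higher went to 0, matrix protease genes called higher to 1 and mitosis genes called lower to 1, and the last were 11 with a filter of 5 FPKM, which left 12 of the 25. No named gene changed its direction, although 19 of their values under the alternatives were counted as moved and 205 as the same. The median of 11 of 47 lists changed its sign under at least 1 alternative, and 9 of these had a median within 0.05 of 0. Of the counts of calls in lists, 903 values under the alternatives were within 1.5 times the reported count and 127 were not. The 3 counts of the floor, 0.189 and 0.175 CPM, limit what was detectable, and the counting intervals do not cover differences between cultures.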

Other observations

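The genes given here were chosen after their values were seen. Further mitotic genes were lower after melatonin, among them MYBL2, a transcription factor of late cell cycle genes (369 and 170 counts in control and melatonin), the cohesin regulator CDCA5 (206 and 65 counts), the spindle protein DLGAP5 (358 and 162 counts), the condensin subunit NCAPG (283 and 131 counts), the abscission factor CEP55 (239 and 125 counts) and HJURP, the chaperone of centromeric histone (32.45 and 20.08 FPKM). Single genes that rose included RRP9 at 119 and 260 counts, NOP9 at 334 and 764 counts, BYSL at 137 and 253 counts and NPM3 at 225 and 441 counts. Of 112 tested genes under the KEGG term for ribosome biogenesis in eukaryotes 6 were higher and 3 lower, with a median of 0.12. Over all genes 6.09% were higher and 6.65% lower. The called members of the term included RNA5SP161 and RNA5SP259, and none of RRP9, NOP9, BYSL and NPM3. Under the GO term for ribosome biogenesis 4 of 29 were higher, among them BYSL, and 1 was lower, with a median of 0.27. ODC1, the rate-limiting enzyme of polyamine synthesis, went from 598 to 1140 counts and TOP1, a DNA topoisomerase, from 17.48 to 32.04 FPKM. COA3 was at 46 and 133 counts, NDUFAF4 at 77 and 167 counts and SDHAF3 at 103 and 212 counts, each an assembly factor of a respiratory chain complex.

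The hyaluronan synthase HAS3 fell by 1.43 on the log2 scale and HAS2 was at 165 and 115 counts with a value of -0.42, while CEMIP and HYAL2 (148 and 304 counts), which take part in its breakdown, rose by 1.32 and 0.69. Of genes for hyaluronan receptors, CD44 was at 27.46 and 35.96 FPKM with a value of 0.38 and HMMR had a value of -0.63. The cytokine gene IL36B was at 145 and 24 counts, the keratin KRT15 at 364 and 112 counts and PKP3, a plakophilin of desmosomes, at 454 and 209 counts. The water channel AQP1 went from 226 to 33 counts and the neuropeptide NMU from 75 to 8 counts, and in JJ012 these genes had log2 fold changes of -1.48 and -4.35. ESR2, which encodes oestrogen receptor beta, fell from 2043 to 890 counts, in a locus that overlaps SYNE2 on the other strand.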
